A study of Sus scrofa with 16 samples.

Results

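The peaks described here are those on the unplaced scaffolds of the pig genome, the assembled sequences that carry no chromosome number. They were chosen by name, as all peaks whose sequence is not chromosome 1 to 18, X, Y or MT, and they numbered 62669 of the 1159046 peaks in the 4 lists. The hearts came from male pigs (castrated boars, per the methods of the study) of 6 months of age. The 4 groups were Tibetan pigs raised in the highland (TH), Yorkshire pigs raised in the highland (YH), Tibetan pigs raised in the lowland (TL) and Yorkshire pigs raised in the lowland (YL), with 4 animals each. DNA methylation was measured by MeDIP-seq, with 1 deposited peak list for each group on the Sscrofa10.2 build.

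In MeDIP-seq, an antibody against methylated cytosine pulls down sheared DNA, and the sequenced fragments pile up where methylated CpG sites are dense. In adult mammalian tissue most CpG sites are methylated, and repeats carry many of them. Sequences that an assembly could not place are often flanked by repeats or gaps, and reads from near-identical copies can be hard to assign to 1 of them. The scaffold names began with GL or JH. No sequence or gene annotation of this build was used, so the genes, CpG islands and repeats on these scaffolds were not analysed here.

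A peak carries its length in bp, its tags (the number of reads the peak caller counted in it) and its fold enrichment (its tags relative to the local background of the same library). The animal behind a peak is not named. Since a base lay under at most 4 peaks of a list, and a group has 4 animals, each list was read as the joined peaks of its 4 animals, and each peak over a base was read as coming from another animal. With 1 list per group, a value of a list has no error over animals. A scaffold value was therefore set beside the same value on each of the 18 autosomes, and the difference from all peaks of chromosomes 1 to 18 was averaged over the 4 lists (mean ± SD, n = 4 lists). A two-sided exact permutation test of the sign of 4 differences cannot go below p = 0.125, so none of these differences could pass 0.05. Intervals for shares are 95% Wilson intervals and cover counting error only. They count each peak as independent, although peaks of several animals often lie over the same bases, so they can be too narrow. The tags inside scaffold peaks summed to 560583 (TH), 631240 (YH), 475952 (TL) and 738822 (YL).

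The scaffolds held between 5.27% and 5.58% of the peaks in each group. TH had 14781 scaffold peaks of 280678 (5.27%, interval 5.18 to 5.35), and YH had 16040 of 287224 (5.58%, 5.50 to 5.67). TL had 14356 of 259066 (5.54%, 5.45 to 5.63), and YL had 17492 of 332078 (5.27%, 5.19 to 5.34). The mean over the lists was 5.41% ± 0.172 (SD, n = 4). The shares of TH and YL were nearly equal and lay below those of YH and TL, so neither the 2 breeds nor the 2 elevations separated. YH and TL are the groups that the study describes as immigrant, and with 1 list per group this split was not tested. The scaffold peaks made up 5.32% to 5.57% of the tags in peaks, close to their share of peaks. The 4 lists contributed to the scaffold peaks much as they did to the autosomes. TL, the shortest list, gave 22.9% of the scaffold peaks and 22.5% of those on chromosomes 1 to 18, while on chromosome X it gave 13.9%. The Tibetan lists together gave 46.5% of the scaffold peaks and 46.8% of the autosomal peaks.

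Peaks were found on 2417 scaffolds, 2054 named GL with 50981 peaks and 363 named JH with 11688 peaks. Each list touched most of them, with 2116 sequences (TH), 2148 (YH), 2098 (TL) and 2198 (YL). All 4 lists had a peak on 1836 of the sequences (76.0%), and these held 60422 of the 62669 peaks. A further 236 sequences were in 3 lists, with up to 24 peaks each, and 163 were in 2 lists, with up to 8. The 182 sequences found in 1 list only carried 220 peaks, at most 3 on any of them, and were 39 (TH), 35 (YH), 48 (TL) and 60 (YL). Sequences found in both lists of 1 breed and in no other numbered 42 for Yorkshire and 22 for Tibetan pigs, with no more than 8 peaks each. For the elevations, 27 were found in both highland lists only and 19 in both lowland lists only, with no more than 5 peaks each. No test was run on these counts.

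Peaks were spread thinly over many sequences. The median was 5 peaks per sequence in TH, YH and TL and 6 in YL, with lower quartiles of 3 and upper quartiles of 9 or 10. A single peak stood on 13.8% (TH), 11.6% (YH), 12.96% (TL) and 11.2% (YL) of the sequences. Over the 4 lists together the median was 17 peaks (quartiles 8 and 34) and the highest number was 263. The 10 sequences with the most peaks held 2052 of them (3.27%), and 435 sequences (18%) held 50% of all scaffold peaks.

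**Figure D1:**
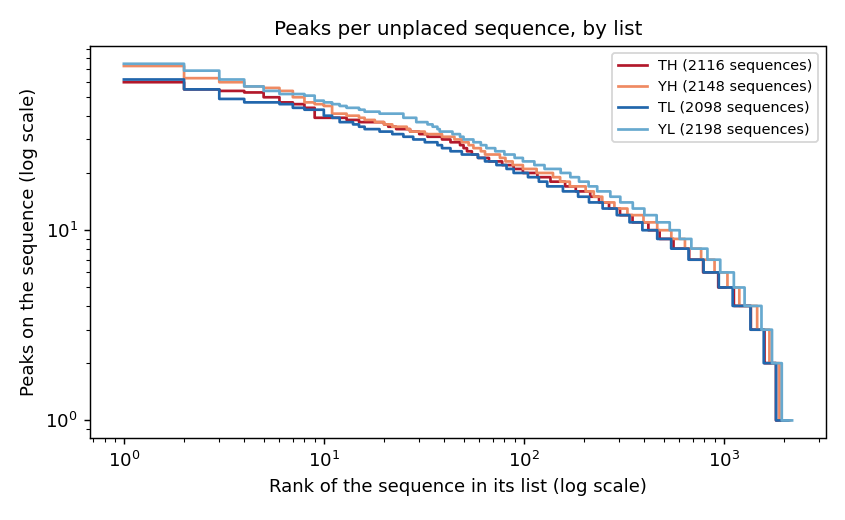
Number of peaks on each unplaced sequence (vertical, log scale) against the rank of the sequence within its list (horizontal, log scale), with 1 line per list. The lines of the 4 lists run close together, from 60 to 75 peaks at rank 1 down to single peaks on the last sequences.

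The sequence with the most peaks was JH118638.1, with 53 peaks (TH), 73 (YH), 62 (TL) and 75 (YL). GL892680.2 followed with 60, 63, 55 and 69 peaks in the same order, and JH118780.1 with 50, 60, 47 and 62. The next were GL892628.1 (55, 57, 43 and 54), JH118582.1 (47, 54, 49 and 51) and GL894031.1 (54, 45, 46 and 44). GL895308.2 (33, 50, 47 and 57), JH118966.1 (39, 56, 40 and 52), GL893687.1 (46, 40, 43 and 48) and GL892594.2 (44, 46, 31 and 52) completed the 10. They differed in kind as well as in number. The peaks of GL892680.2 were long and strong in tags, with a median of 1732 bp, 62 tags and 5.56-fold enrichment, and covered 40.8% of the sequence up to its largest peak end at 213212. Those of JH118638.1 were short, with a median of 961 bp, 24 tags and 9.23-fold enrichment, and covered 12.4% of the sequence up to 379687.

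Peak density on the long scaffolds was close to that of the autosomes for GL and lower for JH sequences. The length of a sequence was taken as its largest peak end over the 4 lists, a lower bound that makes each density an upper bound, above all on short sequences. The largest end had a median of 27534 bp (quartiles 10822 and 59094) and ranged from 519 to 495288. On the 274 sequences with an end at 100000 or beyond, 88.6 (TH), 94.6 (YH), 85.0 (TL) and 105 (YL) peaks were found per Mb. Chromosomes 1 to 18 as a whole had 106, 108, 98.3 and 125 peaks per Mb. The GL sequences of this size had 106, 111, 98.6 and 122 peaks per Mb, close to the autosomal values, and the JH sequences 70.6, 77.2, 70.8 and 86.8. The JH values lay below the chromosome with the fewest peaks per Mb, chromosome 15, which had 80.7 (TH), 84.3 (YH), 76.5 (TL) and 98.9 (YL).

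The typical scaffold peak was slightly longer than the typical autosomal peak and lay well inside the range of the chromosomes. The median length was 1042 bp against 992 bp in TH, 1074 against 1023 in YH, 975 against 941 in TL and 1093 against 1040 in YL. The mean difference of the medians was 47 bp ± 8.76 (SD, n = 4 lists; exact sign permutation test, p = 0.125, the smallest possible). In each list 8 of the 18 chromosomes had a longer median than the scaffolds, and the chromosomes ran from 863 bp on chromosome 13 to 1271 bp on chromosome 12 in TH. The difference was 16.1 bp among peaks of at least 20 tags, 20.8 bp between means and 15.3 bp for the JH sequences alone, above 0 in each list. Median tags were 28 against 27 in TH, 30 against 29 in YH, 26 against 25 in TL and 32 against 30 in YL, a mean difference of 1.25 ± 0.5 tags (SD, n = 4; exact test, p = 0.125). Again 8 chromosomes stood above the scaffolds in each list. For the JH sequences alone the sign turned to -0.5 tags, with -1 in YH and TL and 0 in TH and YL. As tags per 1000 bp of peak the difference was 0.0331, with values below 0 in YH and TL.

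Fold enrichment differed little at the median. It was 8.35 on scaffolds against 8.28 on the autosomes in TH, 7.47 against 7.29 in YH, 7.99 against 7.88 in TL and 7.64 against 7.49 in YL. The mean difference was 0.128 ± 0.0479 (SD, n = 4; exact test, p = 0.125), and 5 or 6 chromosomes had a higher median in each list. It was 0.64 for the JH sequences alone (0.57 to 0.74 over the lists) and 0.0125 for the GL sequences, with 0 in TL. On sequences with an end of at least 50000 it was 0.03, with 0 in TH. Chromosome 13, with the shortest peaks, had the highest median fold and chromosome 12, with the longest, the lowest. Among peaks with similar tags the sign of the difference was not the same throughout. At 11 to 19 tags the scaffold median was equal to the autosomal one in TH and YL and lower by 0.12 in TL and by 0.20 in YH. From 20 tags upward it was higher in each list and bin, by 0.39 (TH), 0.37 (YH), 0.30 (TL) and 0.32 (YL) at 30 to 49 tags.

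**Figure D2:**
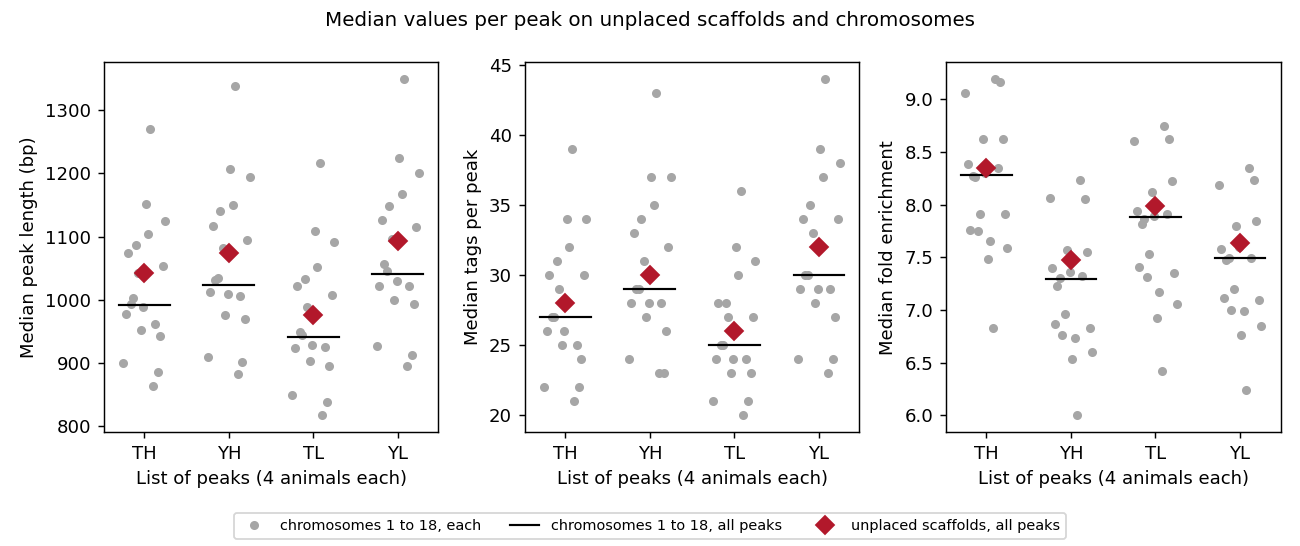
Median peak length (bp), tags per peak and fold enrichment by list, with a grey point for each of chromosomes 1 to 18, a line for all autosomal peaks together and a red diamond for the unplaced scaffolds. The diamonds lie just above the lines in all panels and inside the spread of the chromosomes, for example at 1042 bp in TH where the chromosomes run from 863 to 1271 bp.

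The scaffolds had fewer of the peaks with the most tags and more of those with the highest fold. Peaks with 100 tags or more made up 4.48% of the scaffold peaks against 4.79% on the autosomes in TH, 4.28% against 4.997% in YH, 2.15% against 2.75% in TL and 5.92% against 6.25% in YL. At 200 tags or more the shares were 0.332% against 0.510%, 0.187% against 0.368%, 0.0697% against 0.175% and 0.452% against 0.659%. These shares lay inside the range of the chromosomes. Peaks with at least 15-fold enrichment made up 4.34% against 3.58% in TH, 1.56% against 1.06% in YH, 2.42% against 1.78% in TL and 2.13% against 1.36% in YL. In YH and YL the scaffold share exceeded that of the highest chromosome, 1.42% and 1.90%, while in TH (5.06%) and TL (2.46%) at least 1 chromosome was higher. The highest values of all were autosomal. The most tags in a scaffold peak were 325 (TH), 319 (YH), 242 (TL) and 337 (YL), and the most in an autosomal peak were 2202, 3375, 2538 and 3214.

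High fold enrichment was more frequent at the start of a scaffold. Peaks that started within the first 100 bp numbered 309 (TH), 353 (YH), 272 (TL) and 383 (YL). At least 15-fold enrichment was found in 8.41% (TH), 5.67% (YH), 8.09% (TL) and 6.79% (YL) of them, and in 4.25%, 1.47%, 2.31% and 2.03% of the other scaffold peaks. Their median fold was 9.06, 8.51, 8.665 and 8.38. The peaks with at least 15-fold enrichment were only 26, 20, 22 and 26 in number, and 8, 8, 8 and 7 of them stood on 2 sequences, GL894518.1 and GL896400.1. Without these 2 sequences the shares were 5.98% (interval 3.82 to 9.25), 3.48% (2.001 to 5.98), 5.30% (3.18 to 8.70) and 5.05% (3.26 to 7.76), and in TH the interval held the share of the other scaffold peaks. Without any peak of the first 100 bp, the higher share on scaffolds than on the autosomes remained in each list. The far ends of the scaffolds could not be examined in this way, because their lengths are not in the lists, and the lists hold no background values. Whether the local background at a scaffold start was taken over a shorter stretch was not tested, which limits the reading of these fold values and of the highest ones, on GL894518.1 and GL896400.1.

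Both peaks with the most tags stood at 1 place, GL895443.2:20197-24786. The 3 peaks of TH there had 287, 325 and 175 tags, those of YH had 230, 262, 227 and 249, those of TL 237, 242, 237 and 239, and those of YL 189, 299, 262 and 337. Their fold enrichment was low, from 3.35 to 6.03, and the ranges of tags in the 4 lists overlapped. The third, a YH peak of 319 tags at JH118581.1:75923-81695, was 5773 bp long with 3.62-fold enrichment. It overlapped 3 peaks of TH, 4 of TL and 6 of YL, with 77 to 303 tags.

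The peaks with the highest fold stood at the start of 2 scaffolds. At GL894518.1:56-1154 all 16 possible peaks were present, with fold enrichments of 25.33, 23.17, 21.41 and 23.92 in TH and of 20.94, 21.88, 21.31 and 23.73 in YH. TL had 21.18, 23.75, 25.97 and 28.59 and YL had 25.78, 21.23, 21.5 and 21.8. The 4 ranges overlapped, and each of these peaks also had many tags, from 169 to 309. At GL896400.1:5-1223 there were 4 peaks each in TH, YH and TL and 3 in YL, with 19.03- to 26.6-fold enrichment and 26 to 95 tags. On GL896400.1 the 3 YL peaks (23.84 to 25.61) lay just above the 4 YH peaks (19.03 to 23.64) in fold, and the ranges of TH and TL overlapped both. The tags of the TH peaks there differed widely, with 95, 47, 26 and 87.

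Peaks differed in strength from sequence to sequence. Among the 1118 sequences with at least 20 peaks, which held 81.7% of all scaffold peaks, the median fold of a sequence had a median of 7.79 (quartiles 6.56 and 9.01) and ran from 4.37 to 15.6. The median tags ran from 15 to 127. The order of the sequences was much alike in the 4 lists. Over the 958 to 1093 sequences with at least 5 peaks in both lists of a pair, Spearman's rho between lists was 0.807 to 0.849 for the median fold, 0.827 to 0.871 for the median tags and 0.770 to 0.819 for the median length. These values describe sequences that share the same reference and base composition, and no p is given. Across sequences, a high fold went with few tags (rho = -0.75, n = 1118) and with short peaks (rho = -0.72).

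The 3 sequences with the highest median fold had 14.73 (TH), 14.06 (YH), 18.095 (TL) and 15.87 (YL) (GL893382.1, 21 peaks), 14.415, 15.105, 14.33 and 13.94 (JH118918.1, 24 peaks) and 14.98, 14.61, 13.735 and 11.86 (GL893674.1, 30 peaks). Their peaks covered 1.31% to 9.10% of each sequence up to its largest end, and all 3 were high in each list. The 3 with the lowest were GL893006.1 with 4.68, 3.94, 4.645 and 4.55, GL895129.1 with 4.48, 4.555, 4.9 and 4.34 and GL896460.1 with 5.555, 4.33, 4.525 and 4.84. The median peak had 2496 bp and 106 tags on GL893006.1, 2327 bp and 104.5 tags on GL895129.1 and 1242 bp and 53 tags on GL896460.1, and the peaks covered 44.0% to 66.2% of each sequence up to its largest end.

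Among the same 1118 sequences, the share of a sequence's peaks that came from Tibetan pigs ran from 25% to 75%, with a median of 46.9% and quartiles of 43.1% and 50%. At the upper end, GL893738.1 had 11 peaks (TH), 2 (YH), 10 (TL) and 5 (YL). GL894185.1 had 14, 3, 8 and 6 peaks in that order, and GL894707.2 had 7, 3, 9 and 4. On each of these 3 sequences both Tibetan lists exceeded both Yorkshire lists. At the lower end, 5 sequences tied at 25%. Of the 3 taken, GL894011.1 had 3, 10, 3 and 8 peaks, with both Yorkshire lists above both Tibetan lists. The same held for GL894953.1, with 4, 6, 2 and 12 peaks. GL894576.1 had 6, 4, 0 and 14 peaks, so that YL was highest there and YH lay below TH. These sequences were chosen for their shares, and no test was run on them.

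Peaks recurred between animals of a group more on the scaffolds than on any autosome. Of the bases under at least 1 peak of a list, the share under at least 2 peaks was 51.4% on scaffolds against 47.9% on chromosomes 1 to 18 in TH, 55.0% against 50.7% in YH, 49.7% against 45.2% in TL and 55.1% against 52.1% in YL. The mean difference was 3.86 percentage points ± 0.712 (SD, n = 4 lists; exact sign permutation test, p = 0.125, the smallest possible). The highest chromosome had 50.5% (TH), 54.4% (YH), 48.1% (TL) and 54.1% (YL), so that 0 of the 18 chromosomes reached the scaffold value in any list. The covered bases numbered 9810261 (TH), 9980754 (YH), 8710079 (TL) and 11247312 (YL). Bases under peaks of all 4 animals made up 7.29% against 5.74% in TH, 16.4% against 13.2% in YH, 12.6% against 9.70% in TL and 14.9% against 12.3% in YL, again above each chromosome. TH had the lowest share of bases under 4 peaks on the scaffolds, as it had on the autosomes.

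**Figure D3:**
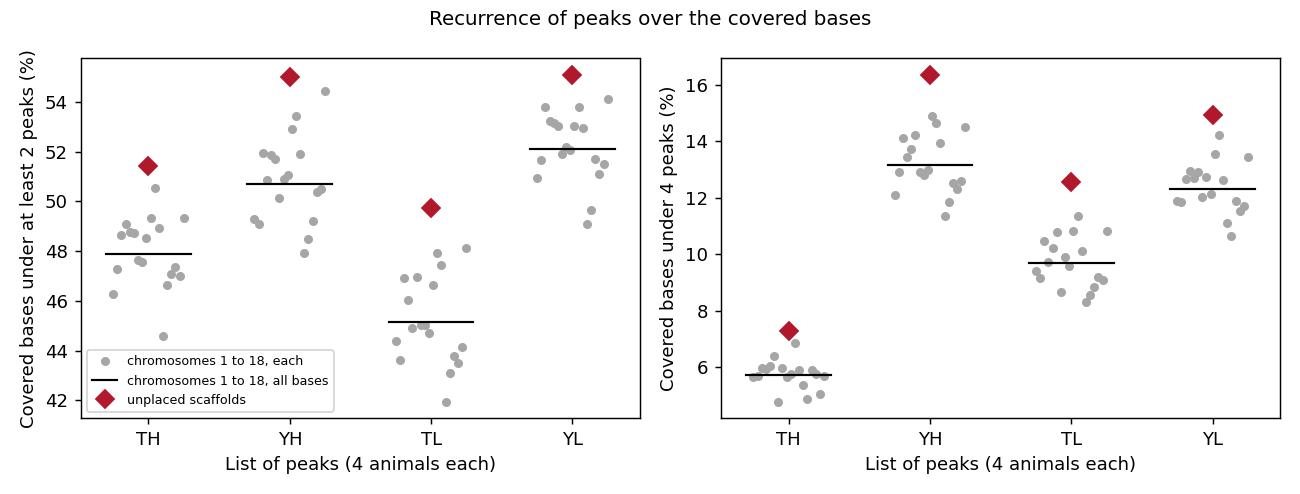
Share of covered bases (%) under at least 2 peaks (left) and under 4 peaks (right) in each list, with a grey point for each of chromosomes 1 to 18, a line for all autosomal bases together and a red diamond for the unplaced scaffolds. The diamond is above all 18 points in each list, for example 51.4% in TH against at most 50.5% on a chromosome.

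The result held for both kinds of scaffold name but not for each class of size. On their own, the GL sequences and the JH sequences each stood above all 18 chromosomes in the share under at least 2 peaks, with 49.4% to 54.7% and 51.4% to 57.1% over the lists. The same held for sequences with a largest end of at least 50000, for the scaffolds without the 10 with the most peaks and, with the same filter on both sides, for peaks of at least 20 tags. For the share under 4 peaks, 1 chromosome exceeded the scaffolds in TH among the longer sequences, and in TH and YL at a minimum of 20 tags. The cause of this difference was not tested.

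Over all 16 animals, peaks covered 16621029 bases of the scaffolds. Of these, 29.98% lay under 1 peak only, against 33.1% on chromosomes 1 to 18, and 1.84% lay under 16 peaks, against 1.23%. The chromosomes ran from 0.920% (chromosome 14) to 1.64% (chromosome 11) for 16 peaks. The bases under 16 peaks formed 332 regions on 282 sequences with a median length of 851 bp, and summed to 306458 bp. The longest was 3150 bp at GL893160.1:14039-17188, where the 16 peaks had 88 to 258 tags and 3.48- to 6.18-fold enrichment. The median region had 51.5 tags and 8.98-fold enrichment per peak, more than the medians of 26 to 32 tags over all scaffold peaks.

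Overlap between the groups was also higher on the scaffolds. A peak was counted as shared where at least 1 bp lay under a peak of the other list. Peaks overlapped by all 3 other lists made up 66.9% in TH (interval 66.1 to 67.7) against 59.8% on the autosomes, 69.4% in YH (68.7 to 70.1) against 64.0%, 71.0% in TL (70.2 to 71.7) against 64.5% and 65.4% in YL (64.6 to 66.1) against 58.4%. The mean difference was 6.47 percentage points ± 0.776 (SD, n = 4 lists; exact sign permutation test, p = 0.125, the smallest possible). The 4 values are not independent, since each counts overlap with the other 3 lists. The highest chromosome had 63.2% (TH), 69.3% (YH), 70.5% (TL) and 63.2% (YL), and 0 of 18 reached the scaffolds in any list, although in YH and TL the margin was within the counting interval. Among GL sequences, and without the 10 sequences with the most peaks, 1 chromosome exceeded the scaffolds in YH. Among sequences with an end of at least 50000 this was so in YH and TL, and at a minimum of 20 tags 2 chromosomes did so in YH and 1 in YL. Peaks that met no other list were fewer on scaffolds, with 7.30% against 9.90% in TH, 5.29% against 6.57% in YH, 6.44% against 8.74% in TL and 6.94% against 8.73% in YL.

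The shared scaffold peaks had more tags and were longer. Peaks overlapped by all 3 other lists had a median of 32 (TH), 35 (YH), 29 (TL) and 37 (YL) tags, and peaks overlapped by none had 19, 18, 16 and 20. Their median lengths were 1141, 1169, 1068 and 1199 bp against 807, 776, 710 and 806.5 bp, and a longer peak more easily meets another by 1 bp. Median fold did not follow the same order in each list, with 8.64 against 7.87 in TH, 7.51 against 7.5 in YH, 7.98 against 8.12 in TL and 7.84 against 7.33 in YL. Within bins of similar tags the scaffolds remained above the autosomes in all 20 combinations of list and bin, by 1.41 to 6.84 percentage points. Length was not matched within the bins. At 11 to 19 tags the share was 49.2% against 42.4% in TH, 43.9% against 41.2% in YH, 51.6% against 44.7% in TL and 40.4% against 35.4% in YL. The smallest gap was in YH at 100 tags or more, with 85.9% against 84.5%.

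**Figure D4:**
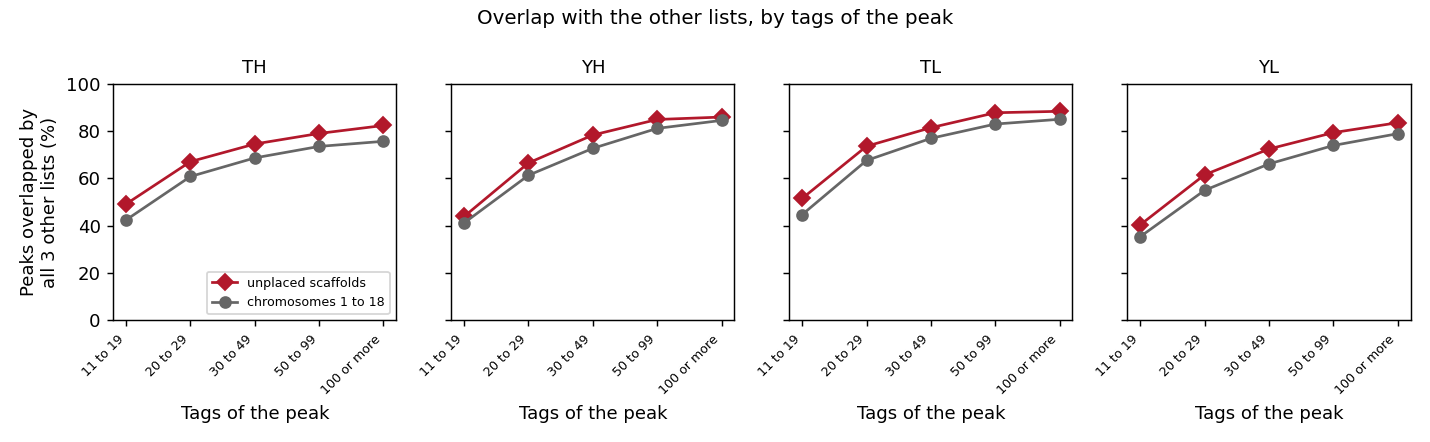
Share of peaks overlapped by all 3 other lists (%) against the tags of the peak in 5 bins, with 1 panel per list, red diamonds for the unplaced scaffolds and grey circles for chromosomes 1 to 18. Both rise with the tags, and the scaffolds lie above the chromosomes in each bin, for example at 49.2% against 42.4% for TH peaks of 11 to 19 tags.

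The bases shared by a pair of lists, divided by the bases under either, were 0.498 for TH and YH on the scaffolds (0.455 on the autosomes), 0.492 for TH and TL (0.451), 0.508 for TH and YL (0.471), 0.502 for YH and TL (0.455), 0.554 for YH and YL (0.514) and 0.483 for TL and YL (0.441). Each of the 6 scaffold values was above that of all 18 chromosomes. YH and YL overlapped most and TL and YL least, both on scaffolds and on the autosomes. Breed or elevation did not order the pairs, since TH shared more with YL than with TL. The ratio also depends on how many bases a list covers, from 8710079 (TL) to 11247312 (YL) on the scaffolds.

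The study compared breeds at each elevation (TH versus YH, TL versus YL) and elevations within each breed (TH versus TL, YH versus YL). Windows of 500 bp were used, and the peaks of each group over base 250 of a window were counted. Of the 33259 scaffold windows with a peak in any list, those with peaks in exactly 4 of the 8 animals of a comparison were tested with Fisher's exact test, two-sided. A window with 4 peaks against 0 gives p = 0.0286 in the exact test, the smallest that 4 animals against 4 allow. Neighbouring windows can lie under the same peaks and are not independent.

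In TH versus YH, 143 of 2419 scaffold windows (5.91%) had 4 peaks against 0, and the background over all windows of the genome was 5.55%. In TL versus YL there were 195 of 2447 (7.97%), with a background of 8.73%. In TH versus TL there were 69 of 2211 (3.12%), with a background of 2.57%, and in YH versus YL 61 of 2436 (2.50%), with a background of 2.96%. Each scaffold share lay inside the range of the 18 chromosomes, so the scaffolds did not stand apart from the genome in these comparisons. None of the windows passed after Benjamini-Hochberg adjustment of Fisher's exact test over all windows of a comparison (adjusted p = 0.514, 0.327, 0.959 and 0.966 in the order given). All windows of 4 against 0 share the smallest possible p, so they could pass only if most tested windows were of this kind. The adjusted test therefore could not single out a window.

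**Figure D5:**
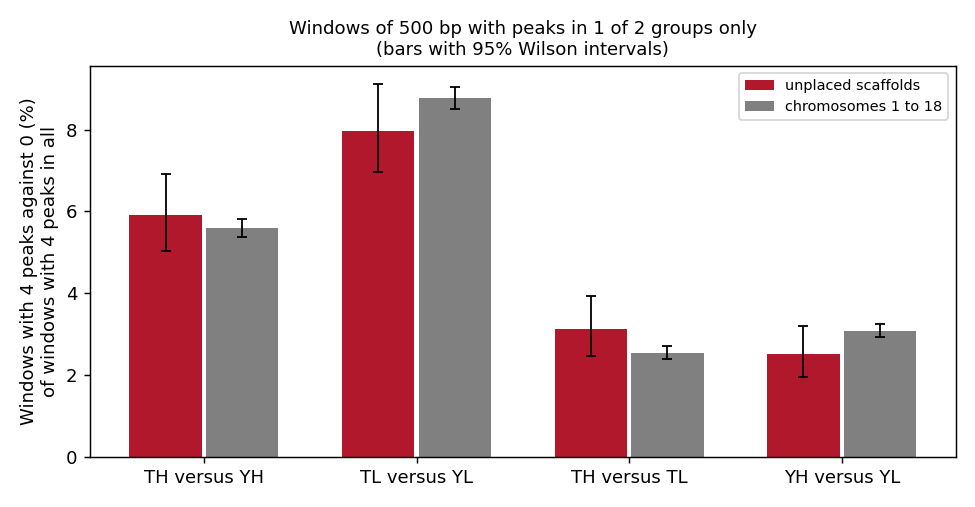
Share of 500 bp windows with 4 peaks against 0 (%), among windows with peaks in 4 of the 8 animals, for the unplaced scaffolds (red) and chromosomes 1 to 18 (grey), with 95% Wilson intervals that cover counting error only. The bars start at 0 and are higher for the breed comparisons (5.91% and 7.97% on scaffolds) than for the elevation comparisons (3.12% and 2.50%).

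The windows leaned to the Yorkshire pigs. In TH versus YH, 116 of the 143 had their peaks in YH and 27 in TH. In TL versus YL, 172 of the 195 had them in YL and 23 in TL. The autosomes leaned the same way, with 1827 of 2303 windows in YH and 3317 of 3747 in YL, and the YH and YL lists are the longer of each pair. TH had the lowest share of covered scaffold bases under 4 peaks, 7.29% against 16.4% (YH), 12.6% (TL) and 14.9% (YL). For exactly 3 peaks its share was the highest, 18.5% against 16.1%, 13.8% and 17.1%. A window of 4 against 0 needs 4 peaks over a base, and the part of this in the directions was not tested. In YH versus YL, 45 of 61 windows had their peaks in YL, and 997 of 1316 did on the autosomes. In TH versus TL, 42 of 69 had them in TL, and 511 of 984 did on the autosomes. With at least 3 peaks against 0, among windows with 3 or 4 peaks in all, the direction of this comparison turned, with 386 of 612 windows (11.5%, background 11.6%) in TH. The other directions stayed, with 562 of 885 in YH (15.7%, background 15.3%), 932 of 1077 in YL rather than TL (18.7%, background 20.1%) and 367 of 526 in YL rather than YH (9.28%, background 10.4%). The lean to YH over TH was weaker, as the part in TH rose from 18.9% to 36.5% of the windows. The number of peaks called per animal, which is not in the lists, and methylation cannot be told apart in these counts.

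The longest stretch that separated TH from YH was GL896017.1:71001-74500, with 7 windows. YH had 4 peaks there of 121 to 197 tags, TL had 4 of 71 to 152 and YL had 2 of 100 and 258, whereas TH had 0. It was also the longest stretch of TL over TH, in the 5 windows of GL896017.1:72001-74500. In the other direction GL892841.1:87001-88500 had 4 TH peaks of 37 to 94 tags, 0 in YH, 1 in TL and 3 in YL. In neither place did the groups separate by breed or by elevation.

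For the lowland pigs, GL893046.1:18001-20000 held the longest stretch of YL over TL, with 4 YL peaks of 43 to 86 tags, 1 YH peak of 68 tags and 0 in either Tibetan group. For TL over YL, 2 stretches of 3 windows tied. GL896460.1:3001-4500 had 4 TL peaks of 51 to 101 tags, 2 in YH, 1 in TH and 0 in YL, and the windows of JH118450.1:63501-65000 had 4 peaks in TL, at most 1 in YH and 0 in TH and YL. The longest of TH over TL was GL893036.1:63001-64500, with 4 TH peaks of 39 to 101 tags, 2 in YH, 1 in YL and 0 in TL. Between the elevations in Yorkshire pigs, GL896054.1:14001-15500 had 4 YH peaks of 52 to 133 tags, 2 in TL, 1 in TH and 0 in YL. For YL over YH several stretches of 3 windows tied. The first by name, GL892333.1:22501-24000, had 4 YL peaks of 42 to 63 tags, 3 in TH, 1 in TL and 0 in YH, and GL892680.2:173001-174500 and GL894077.1:183001-184500 also had 4 peaks in YL and 0 in YH. The stretch on GL893046.1 had no peak in either Tibetan group.

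When the 8 animals of a breed were pooled, a comparison added after the data were seen, 0 of 9026 scaffold windows with peaks in 5 to 11 of the 16 animals passed Fisher's exact test after Benjamini-Hochberg adjustment over all 169144 such windows, where the background was also 0% (smallest adjusted p = 0.258). At an unadjusted p under 0.05 there were 685 (7.59%), near the background of 7.31%, and 593 of them had more peaks in Yorkshire pigs, as had 10706 of 12361 over the whole genome. For the elevations, 0 passed the adjusted exact test as well (smallest adjusted p = 1, background 0%), and 161 (1.78%) had an unadjusted p under 0.05 with a background of 1.61%.

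In 6 scaffold windows, of 1203 with peaks in 8 animals, all 8 animals of a breed had a peak and the other 8 had 0, where the background was 0.457%. The exact p of such a window was 0.000155 (two-sided Fisher's exact test, adjusted p = 0.258). The only one of Tibetan pigs was GL892407.1:113501-114000. Its peaks had 25, 24, 36 and 18 tags in TH and 24, 24, 32 and 31 in TL, with 5.66- to 9.68-fold enrichment. The Tibetan groups overlapped fully in tags there.

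The other 5 windows were of Yorkshire pigs and lay at 4 places. On GL894170.1 both windows of 33501-34500 lay under the same peaks, which had 47, 38, 49 and 26 tags in YH and 33, 44, 38 and 63 in YL. At GL894735.1:28501-29000 the peaks were weak in tags, with 24, 14, 14 and 22 in YH and 20, 16, 26 and 24 in YL, but had 9- to 11.23-fold enrichment. At GL894987.2:24001-24500 they had 57, 41, 37 and 34 tags in YH and 54, 45, 71 and 30 in YL. At GL895466.1:6001-6500 they had 56, 28, 57 and 21 tags in YH and 69, 62, 51 and 39 in YL. In each place the ranges of tags in YH and YL overlapped, and the 4 peaks of each were fixed by the choice of the windows. No window had 8 peaks against 0 between the elevations, on the scaffolds or elsewhere (background 0%).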

How the data were processed

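MeDIP-seq libraries of heart DNA from 16 pigs were sequenced by the authors. Their reads were trimmed (FASTX) and aligned to Sscrofa10.2 (Bowtie), and peaks were called by MACS. Deposited was 1 peak list for each group. Tags per peak are counts without normalization, and fold enrichment is a ratio to the local background, both as deposited. Position, length and summit are in bp. In 5233 scaffold peaks of TH the end was taken from the joint start and end field. Reads per animal are stated by the study but not tied to peaks in the lists, and were not used here. The Wilson intervals cover counting error only.

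Samples were grouped by their titles. The scaffold peaks and all summaries were chosen with earlier results of these data known. Medians, covered bases, overlaps (at least 1 bp) and windows (500 bp, base 250) were computed without a filter. The sign of the 4 list differences was tested with an exact permutation test, and windows with the exact test of Fisher, adjusted by Benjamini-Hochberg over all windows of a comparison. The counting was tested on simulated data.

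Named by rule were the 10 sequences with the most peaks, the 3 highest and 3 lowest of those with at least 20 peaks by median fold and by Tibetan share, the 3 peaks with the most tags and the 3 with the highest fold, and the longest stretch of 4-against-0 windows in each direction (ties by name). The windows with 8 peaks against 0 and the longest region under 16 peaks were named after their values were seen. Alternatives were means, equal numbers of peaks, at least 20 tags, merged peaks, covered bases, tags per 1000 bp, an overlap of 50%, sequences with an end of at least 50000, the scaffolds without the 10 with the most peaks, other window rules and each list left out. GL or JH sequences alone, peaks after the first 100 bp, their shares without 2 sequences and the comparisons of 8 animals with 8 were added after the data were seen. Scripts ran under Python 3.11.15 with pandas 2.3.3, NumPy 2.4.6 and SciPy 1.17.1, and plots were drawn with Matplotlib 3.10.9.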

Additional observations from a re-analysis of the deposited data

How the results depend on the processing

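The lists carry no animal names, so leaving out single animals was not possible, and each list was left out instead. No paired analysis was possible because the peaks carry neither an animal nor a replicate number. Of the alternative values, 60 stayed within 1 SD over the lists of the reported value (for window counts, within 1.5 times), 26 moved further and 1, the difference in median tags, fell below 0. This was -0.5 tags for JH sequences alone (reported 1.25), while it was 2 tags on sequences of at least 50000 and 0.0331 as tags per 1000 bp. With at least 20 tags the scaffold share was 5.63%, the length difference 16.1 bp, the fold difference 0.278 and the overlap difference 5.67 points. The share was 5.04% for merged peaks and 5.20% of covered bases. The length difference was 34.8 bp with equal numbers of peaks, 20.8 bp for means and 15.3 bp for JH. The fold difference was 0.185 with equal numbers of peaks, 0.188 for means, 0.03 on sequences of at least 50000, 0.0125 for GL and 0.64 for JH. The difference in bases under several peaks was 2.56 points for 4 peaks and 5.53 for JH, and the overlap difference 8.43 for JH. With at least 3 peaks against 0, the windows numbered 885 (TH versus YH), 1077 (TL versus YL), 612 (TH versus TL, where the direction also turned, from 27 of 69 in TH to 386) and 526 (YH versus YL), with backgrounds of 15.3%, 20.1%, 11.6% and 10.4%. The cause of these shifts was not tested, except that a looser rule admits more windows. With each list left out, the ranges were 5.36% to 5.46% for the share, 45 to 51.3 bp for length, 1 to 1.33 tags, 0.11 to 0.147 for fold, 3.62 to 4.14 points for bases under at least 2 peaks and 6.26 to 6.83 points for overlap, where the other lists were still set against all 3. With the left-out list also dropped as another list, so that overlap with 2 lists was counted (added after the data were seen), the overlap difference was 5.23 to 5.88 points.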
